A study of Danio rerio with 8 samples.

Results

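Complement is a cascade of secreted proteins that tags and lyses microbes and draws in leukocytes. The 10 complement genes described here were c3a.1, c3a.2, c3a.3, c3b.1, c3b.2, c4b, c5, c7b, cfb and cfd. They were taken from the gene symbols of the count files, of which there were 37685 after rows of the same symbol were summed. The 10 were picked with their difference between genotypes already known, so that difference is given as a description and carries no test.

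Epicardial cells, which line the outside of the heart, were sorted by their tcf21:nEGFP signal from zebrafish ventricles at 70 days after fertilization and profiled by bulk RNA-seq. There were 4 libraries from cxcr4a mutants, which carry the cxcr4aum20 allele and are labelled as having lost their coronary vessels, and 4 from wild-type controls. All 8 carry the tcf21 reporter, written nGFP in the sample titles, and missing vessels and any further effect of the allele cannot be told apart. The labels do not say whether a library came from 1 fish or a pool, so errors measure the spread between libraries, which may be partly technical.

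C3 is the protein on which the classical, lectin and alternative routes of complement converge, and its cleavage yields a tag that binds surfaces and a fragment that attracts leukocytes. C4 acts upstream of C3 in the classical and lectin routes. Factor B and factor D, the products of cfb and cfd, build the alternative-route enzyme that cleaves C3. C5 and C7 belong to the terminal route that ends in a membrane pore. These roles are known mainly from mammals. Zebrafish carry several C3 genes, and the liver is the main source of the circulating proteins.

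Total counts were 18891079 to 25513003 in mutant libraries and 19584695 to 28471786 in wild-type libraries. Levels are given as CPM, the count scaled to library size with TMM factors, and are compared between libraries only, since a longer gene collects more reads. The mutated gene cxcr4a was at 4.10 to 15.6 CPM over mutants and 0.523 to 11.5 CPM over wild-type libraries, and these reads do not check the genotype, since mutant RNA is counted too. Of 12 epicardial markers, upk3b was at 0 in all 8 libraries and aldh1a2 had at most 6 counts in any library. The others were counted, with tcf21 at 77.7 to 115 CPM over mutants and 73.0 to 142 CPM over wild-type libraries.

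Among the C3 genes, c3a.1 was the one with many reads, and was higher in every mutant library than in any wild-type library. Its counts were 12978, 9470, 16000 and 12227 in mutants 1 to 4 and 3499, 5459, 1414 and 2357 in wild-type 1 to 4. As levels these were 618, 549, 694 and 427 CPM in mutants and 184, 238, 42.3 and 112 CPM in wild type. The lowest mutant, number 4, stood above the highest wild type, number 2. Mutants averaged 572 ± 113 CPM and wild type 144 ± 85.2 CPM (SD, n = 4 each), a fitted log2 fold change of 1.99 ± 0.46 (SE). Leaving out any 1 library gave 1.68 to 2.33.

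The related genes c3a.2 and c3a.3 gave few reads, in the same direction. c3a.2 had 14, 14, 34 and 20 counts in mutants 1 to 4 and 1, 5, 5 and 1 in wild-type 1 to 4. c3a.3 had 27, 25, 56 and 23 counts in mutants and 15, 16, 3 and 8 in wild type. Neither gene overlapped between the groups, and mutant 3 was highest for both, as it was for c3a.1. As levels the groups barely separated for c3a.3, with mutant 4 at 0.803 CPM and wild-type 1 at 0.790 CPM. The fitted log2 fold changes were 2.89 ± 0.83 for c3a.2 and 1.61 ± 0.81 for c3a.3 (SE). With at most 5 counts in a wild-type library, c3a.2 passed the filter on low counts through its mutant libraries alone.

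c3a.2 and c3a.3 lie next to each other in the GRCz12tu assembly, and C3 genes resemble one another, so reads could be placed on the wrong copy. For every 1000 counts of c3a.1 there were 1.08 to 2.13 counts of c3a.2 in mutants and 0.286 to 3.54 in wild type. For c3a.3 there were 1.88 to 3.50 in mutants and 2.12 to 4.29 in wild type. Both ranges of the small genes thus overlapped between genotypes once set against c3a.1. For c3a.2 the overlap came from wild-type 3 alone, at 3.54 from 5 counts. Wild-type 1, 2 and 4 were at 0.286, 0.916 and 0.424, below every mutant, from 1, 5 and 1 counts. How many reads of the small genes belong to c3a.1 was not tested.

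**Figure D1:**
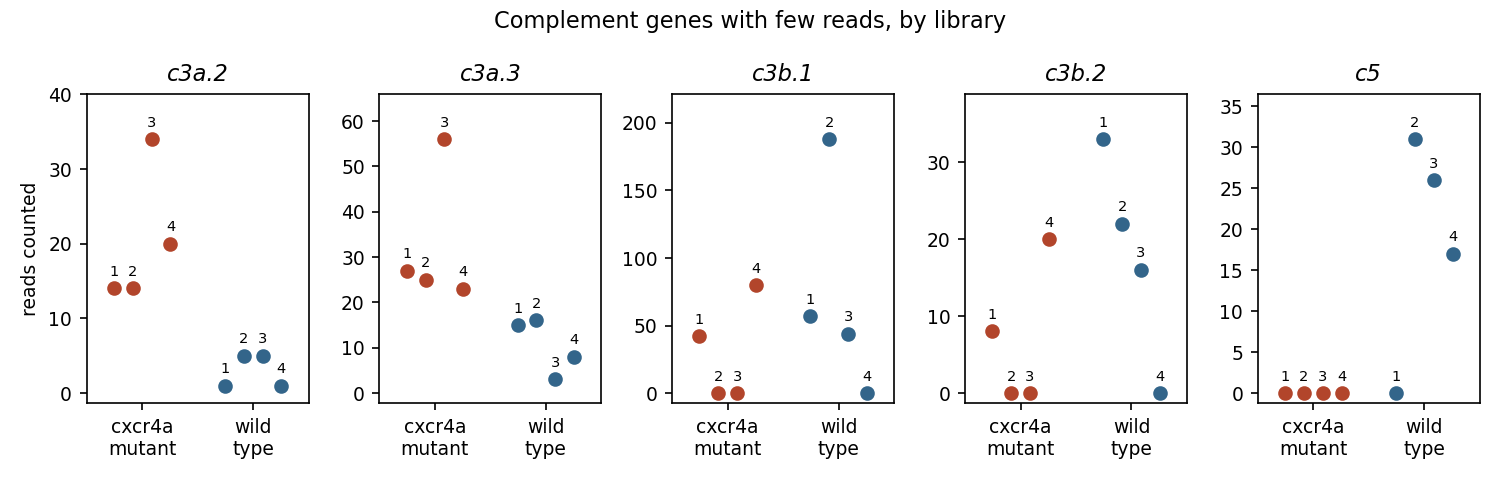
Reads counted per library (vertical axis, number of reads, linear, a different scale in each panel) for 5 complement genes with few reads, in 4 cxcr4a mutant and 4 wild-type libraries; each point is 1 library, labelled with its replicate number. c3a.2 and c3a.3 do not overlap between groups, c3b.1 and c3b.2 are at 0 in the same 3 libraries, and c5 is at 0 in all 4 mutants and in wild-type 1.

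The second pair of C3 genes, c3b.1 and c3b.2, did not follow c3a.1. c3b.1 had 42, 0, 0 and 80 counts in mutants 1 to 4 and 57, 188, 44 and 0 in wild-type 1 to 4. c3b.2 had 8, 0, 0 and 20 counts in mutants and 33, 22, 16 and 0 in wild type. Mutants 2 and 3 and wild-type 4 were at 0 for both genes, and the groups overlapped. These genes are direct neighbours in the GRCz12tu assembly. Their fitted log2 fold changes were -1.37 ± 1.70 and -1.51 ± 1.51 (SE), errors about as large as the differences. c3b.1 was at -0.26 without wild-type 2 and -2.21 without mutant 4, and c3b.2 at -0.80 without wild-type 1 and -2.57 without mutant 4, so the sizes rest on single libraries. Each symbol sits on 2 rows of the files. The plain row of c3b.1 held 21, 0, 0 and 51 counts in mutants and 21, 42, 16 and 0 in wild type, and its added row 21, 0, 0 and 29 in mutants and 36, 146, 28 and 0 in wild type. The rows thus agreed on which libraries were at 0, but how reads were shared between them is uncertain, and a fit of the plain row of c3b.1 alone gave -0.29.

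The classical and lectin component c4b was abundant and nearly even across mutants. Its levels were 859, 806, 890.2 and 769.8 CPM in mutants 1 to 4 and 637, 848, 154 and 227 CPM in wild-type 1 to 4. Wild-type 1 and 2 reached or approached the mutants, while wild-type 3 and 4 lay far below them, so the groups overlapped. The means were 831 ± 53.8 CPM over mutants and 466 ± 331 CPM over wild-type libraries (SD, n = 4 each), with a log2 fold change of 0.83 ± 0.48 (SE). Leaving out wild-type libraries in turn, or mutants, gave 0.54 to 1.28.

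Factor D, encoded by cfd, is a serine protease of the alternative route, known in mammals as adipsin and made by fat cells. Its levels were 128, 1717, 207 and 94.6 CPM in mutants 1 to 4 and 150.3, 253, 212 and 347 CPM in wild-type 1 to 4. Mutant 2 stood far above all other libraries, and mutants 1 and 4 lay below every wild-type library. The fitted log2 fold change was 1.16 ± 0.85 (SE) with all libraries and -0.75 ± 0.36 (SE) without mutant 2, so 1 library set its direction. Of the 3 rows of cfd, the row cfd_2 held 99.8% to 100.0% of the reads in every library.

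**Figure D2:**
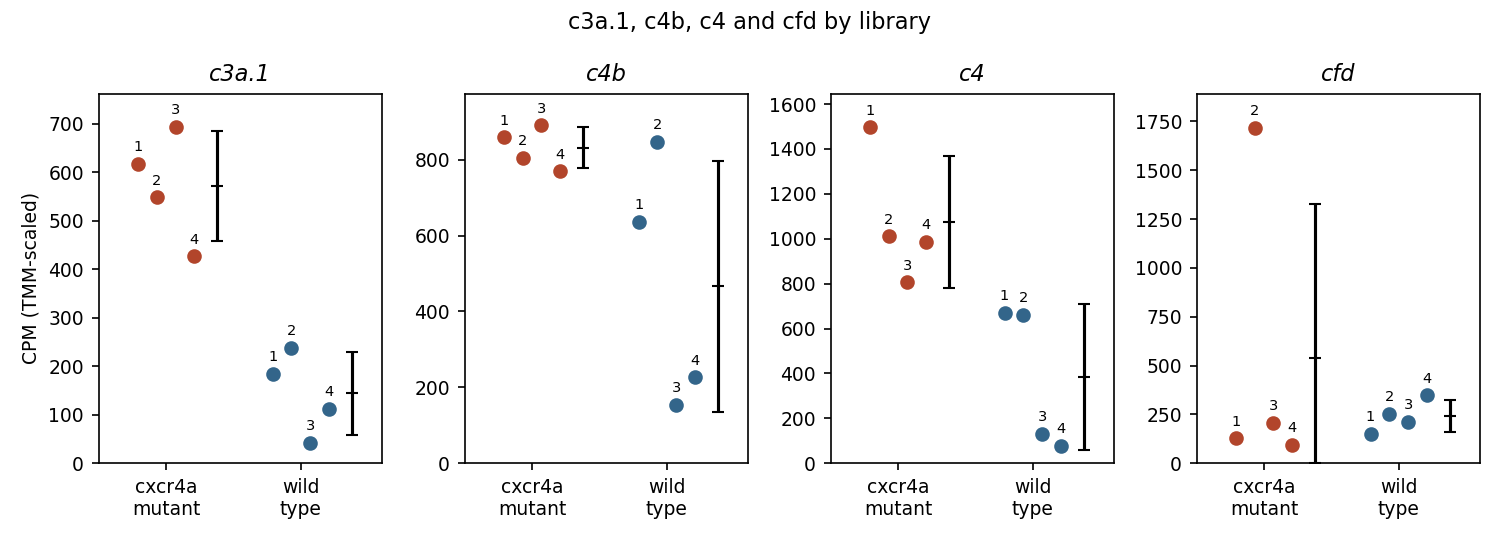
Level per library (vertical axis, CPM scaled with TMM factors, linear from 0) of c3a.1, c4b, c4 and cfd in 4 cxcr4a mutant and 4 wild-type libraries; points are libraries labelled with their replicate number, and the black bar is the mean ± SD of 4, cut at 0. All mutants lie above all wild-type libraries for c3a.1 and c4, wild-type 3 and 4 are lowest for c3a.1, c4b and c4, and mutant 2 is at 1717 CPM for cfd.

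For 3 of the 10 genes there were too few reads to pass the filter on low counts. c5, the first gene of the terminal route, had 0 counts in all 4 mutants and 0, 31, 26 and 17 in wild-type 1 to 4. Set against a floor of 3 counts over the 4 mutant libraries, that was at least 23.0-fold lower in mutants, although wild-type 1 was at 0 as well. The bound pools the libraries of a group and leaves out the spread between them. DESeq2, run on all symbols with counts, gave c5 a log2 fold change of -6.47 ± 2.13 (SE) and did not call it. With 0 counts in all 4 mutants, that value and its error do not measure the size of the difference. Nothing is read from the missing call either, because c5 was picked on this contrast. cfb and c7b had 0 counts in all 8 libraries, which allows up to 0.0334 CPM over the mutants and 0.0311 CPM over wild type; these limits cover counting error only.

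A count of 0 cannot be read as absence for cfb and c7b, because each symbol occupies 2 rows of the files. Whether reads that could be placed on either row were counted is not stated in the labels. Of the symbols on more than 1 row, 33.1% were at 0 in all 8 libraries, against 28.8% of those on a single row. Other symbols on 2 rows went both ways. The epicardial marker aldh1a2 had 15 counts over all mutants and 18 over all wild types. The marker tcf21 had 7995 and 10347, and the C6 gene c6.1 had 5718 and 4787.

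With edgeR's quasi-likelihood test, 8 of 16631 symbols (0.0481%) were called between genotypes at a Benjamini-Hochberg adjusted p under 0.05, and 0 of the 7 complement genes fitted were among them. At an unadjusted p under 0.05 it had 2 of the 7, c3a.1 and c3a.2, and 8.64% of all symbols. DESeq2 called the same 2, against 2.13% of all symbols with an adjusted p. All mutants lay above all wild-type libraries for 3 of the 7, c3a.1, c3a.2 and c3a.3, and for 3.48% of all symbols. Nothing is read from these counts, because the genes were picked on this contrast.

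The other complement genes were 61 symbols listed by role, also with earlier results of these data known. Of these, 43 were in the files, 11 of them at 0 in all libraries, and 18 had enough reads to fit. edgeR called 0 of them in either direction. At an unadjusted p under 0.05, 2 of the 18 were higher in mutants, c4 and clu, and 0 were lower, beside 5.09% of all symbols higher. DESeq2 called 0 of the 23 to which it gave an adjusted p. Changes were positive for 13 of the 18, with a median log2 fold change of 0.30, beside 50.7% and a median of 0.0097 over all 16631 symbols.

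c4, another C4 gene, was more abundant in every mutant than in any wild-type library without passing the test. Its levels were 1497, 1010.1, 806 and 987 CPM in mutants 1 to 4 and 670.5, 661, 131 and 78.5 CPM in wild-type 1 to 4. As for c4b, wild-type 3 and 4 were far below the rest; unlike c4b, the groups did not overlap. The log2 fold change of 1.48 ± 0.64 (SE, n = 4 per group) did not pass (edgeR adjusted p = 0.557). c1s.1, which encodes a protease of the first classical complex, averaged 92.9 ± 42.6 CPM over mutants and 72.4 ± 28.4 CPM over wild-type libraries (SD, n = 4 each; edgeR adjusted p = 0.853). Of its partners in that complex, c1qa and c1r were at 0 in all libraries. c1qb had 1 count and c1qc 3 counts, in wild-type 3 only. c1qa, c1qb and c1qc each occupy 2 rows, so, as for cfb and c7b, their low counts cannot be read as absence.

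The lectin route was thinly counted. colec11 and colec10, which encode collectins that bind sugars on surfaces, averaged 12.9 ± 9.47 and 5.33 ± 2.60 CPM over mutants and 8.13 ± 6.42 and 2.91 ± 2.67 CPM over wild-type libraries (SD, n = 4 each). Neither passed (edgeR adjusted p = 0.838 and 0.775). The mannose-binding lectin gene hbl1 had 1 to 19 counts per library, and was not fitted. masp1 had at most 8 counts in a library and masp2 1 count in all.

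Among relatives of C3 and factor B, c3a.4 varied widely between libraries of both genotypes. It had 72, 0, 120 and 2651 counts in mutants 1 to 4 and 199, 0, 256 and 1146 in wild-type 1 to 4. Its highest and lowest libraries were thus a number 4 and a number 2 in both groups. The log2 fold change was 0.48 ± 1.73 (SE; edgeR adjusted p = 0.970). The factor B-like gene cfbl was at -0.32 ± 0.80 and properdin, cfp, a stabilizer of the alternative-route enzyme, at -0.23 ± 0.58 on the log2 scale (SE; edgeR adjusted p = 0.952 and 0.954).

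Terminal genes differed widely in level. c7a, the other C7 gene, was at 949, 767, 647 and 644 CPM in mutants 1 to 4 and 982, 762, 576 and 486 CPM in wild-type 1 to 4. These ranges overlapped almost fully, with a log2 fold change of 0.10 ± 0.27 (SE; edgeR adjusted p = 0.958). c8g averaged 2.11 ± 0.169 CPM over mutants and 1.03 ± 0.738 CPM over wild-type libraries (SD, n = 4 each; edgeR adjusted p = 0.718), and c8a, c8b and c9 were at 0 in all 8 libraries. The C6 genes c6.1 and c6.2, looked up after the values were seen, were at 0.32 ± 0.37 and 0.04 ± 0.44 on the log2 scale (SE; edgeR adjusted p = 0.868 and 0.991).

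Clusterin, clu, a chaperone that also blocks pore assembly, was at 1124, 75.1, 263 and 307 CPM in mutants 1 to 4 and 219, 79.6, 107 and 108 CPM in wild-type 1 to 4. Mutant 1 was far above the rest and mutant 2 was the lowest of all. Its log2 fold change was 1.78 ± 0.70 (SE; edgeR adjusted p = 0.510), and 0.73 without mutant 1. cpn1, a carboxypeptidase gene whose human product trims C3a and C5a, averaged 809.9 ± 172 CPM over mutants and 791 ± 223 CPM over wild-type libraries (SD, n = 4 each; edgeR adjusted p = 0.988). The regulator gene rca2.1 was at -0.15 ± 0.22 on the log2 scale (SE; edgeR adjusted p = 0.904).

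Receptor genes did not separate the groups. c5ar1, the C5a receptor gene, was at 13.2, 1.33, 19.3 and 36.1 CPM in mutants 1 to 4 and 19.2, 7.01, 40.5 and 13.6 CPM in wild-type 1 to 4 (edgeR adjusted p = 0.973). itgb2, which encodes the beta chain of complement receptor 3, was at 0.24 ± 0.38 and c1qbp at -0.33 ± 0.24 on the log2 scale (SE; edgeR adjusted p = 0.907 and 0.768). The leukocyte gene lcp1 was also lowest in mutant 2, at 31.8 CPM, as were c5ar1, itgb2 and cfp. Over 14 leukocyte markers the summed level was 693 to 4551 CPM over mutants and 1358 to 3796 CPM over wild-type libraries, with lck at 0 in all libraries. Its part in these receptor values was not tested, and fewer cells of a type cannot be told apart from less RNA per cell.

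**Figure D3:**
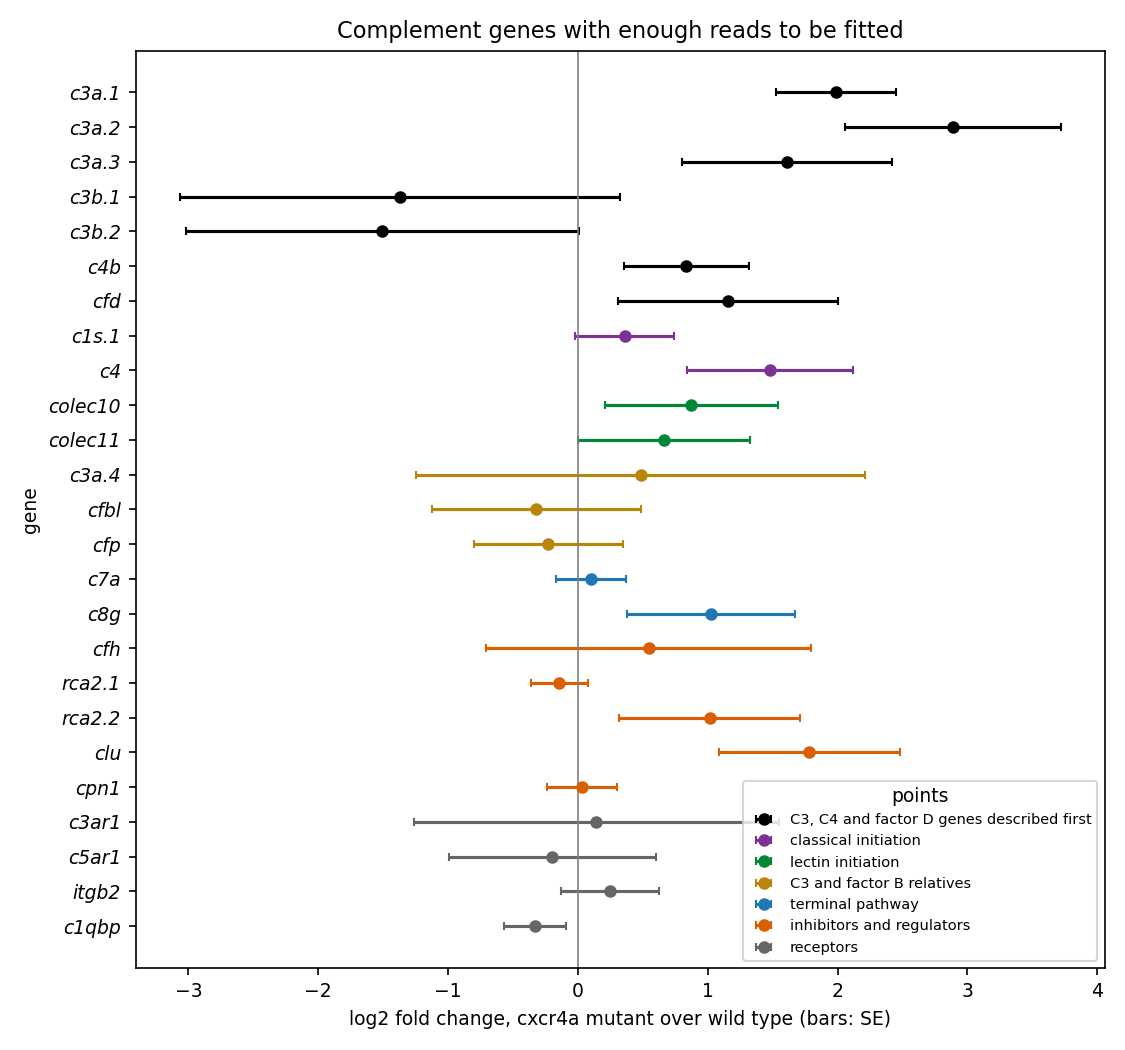
Log2 fold change of cxcr4a mutants over wild type (horizontal axis, points, with bars for the standard error, 4 libraries per group) for the 7 fitted genes of the 10 (black) and the 18 other fitted complement genes, coloured by role. c3a.1 and c3a.2 are at 1.99 and 2.89, c4 and clu at 1.48 and 1.78, and c7a and cpn1 lie near 0.

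Markers of smooth muscle, blood, heart muscle, endothelium and fibroblasts differed between libraries beside these genes. acta2, a smooth muscle actin gene, was at 129, 6182, 61.5 and 17.2 CPM in mutants 1 to 4 and 30.1, 21.3, 2188 and 3300.4 CPM in wild-type 1 to 4. Wild-type 3 and 4 thus combined high acta2 with low c3a.1, c4b and c4, whereas mutant 2, with the most acta2, had c3a.1 at 549 and c4b at 806 CPM, within the range of the other mutants. Of 8 mural markers, 8 were fitted and all 8 had a positive change, beside 50.7% of all symbols, with 0 called. Their summed level was 876 to 9621 CPM over mutants and 553 to 5037 CPM over wild-type libraries, overlapping. For 8 erythrocyte markers it was 2822 to 7636 CPM over mutants and 671 to 12359 CPM over wild-type libraries, with gata1a at 0 in all libraries, and wild-type 3 and 4 were the highest of the 8 libraries. Of 12 cardiomyocyte markers, 10 were fitted and all 10 had a positive change, beside 50.7% of all symbols, with 0 called. Their summed level was 370.4 to 2042 CPM over mutants and 287 to 604 CPM over wild-type libraries, overlapping, and highest in mutant 3, which was also the highest for c3a.1. The other mutants did not keep that order. Mutant 4 was next for the sum, at 1192 CPM, and the lowest mutant for c3a.1, at 427 CPM. Mutant 1 was the lowest mutant for the sum and had c3a.1 at 618 CPM. Of 10 endothelial markers, 8 were fitted and 1 had a positive change, with 0 called, and their sum was 122 to 208 CPM over mutants and 199.7 to 308 CPM over wild-type libraries, with plvapb at 0 in all libraries. Of 8 fibroblast markers, 8 were fitted and 5 had a positive change, with 0 called. Their summed level was 30905 to 48252 CPM over mutants and 28887 to 34428 CPM over wild-type libraries, overlapping. Without the most abundant, col1a2, the sum was 15860 to 24320 CPM over mutants and 13358 to 14800 CPM over wild-type libraries. That sum did not overlap between groups, in the direction of c3a.1. The part of these cell types in the complement values was not tested.

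Without the 3 libraries over 1000 CPM of acta2, a choice made after the values were seen, c3a.1 was at 1.46 ± 0.32 and c4b at 0.18 ± 0.26 on the log2 scale (SE). cfd was at -0.49 ± 0.40 in that fit. c3a.3 was at 1.01 in that fit, and c4 at 0.72 on the log2 scale, against 1.48 with all libraries. Among the 3 mutant and 2 wild-type libraries left, the groups did not overlap for 5 of the 7 fitted genes, with c3b.1 and c3b.2 below wild type beside the 3 c3a genes. With so few libraries the same held for 27.4% of all symbols, so nothing is read from the larger count. Mutant 2, which had the highest cfd, also had the highest acta2, and wild-type 4 was second in both. Wild-type 3 did not follow, with acta2 at 2188 CPM and cfd at 212 CPM. Wild-type 2 had more cfd, 253 CPM, at 21.3 CPM of acta2. The part of acta2-rich cells in the cfd values was not tested.

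**Figure D4:**
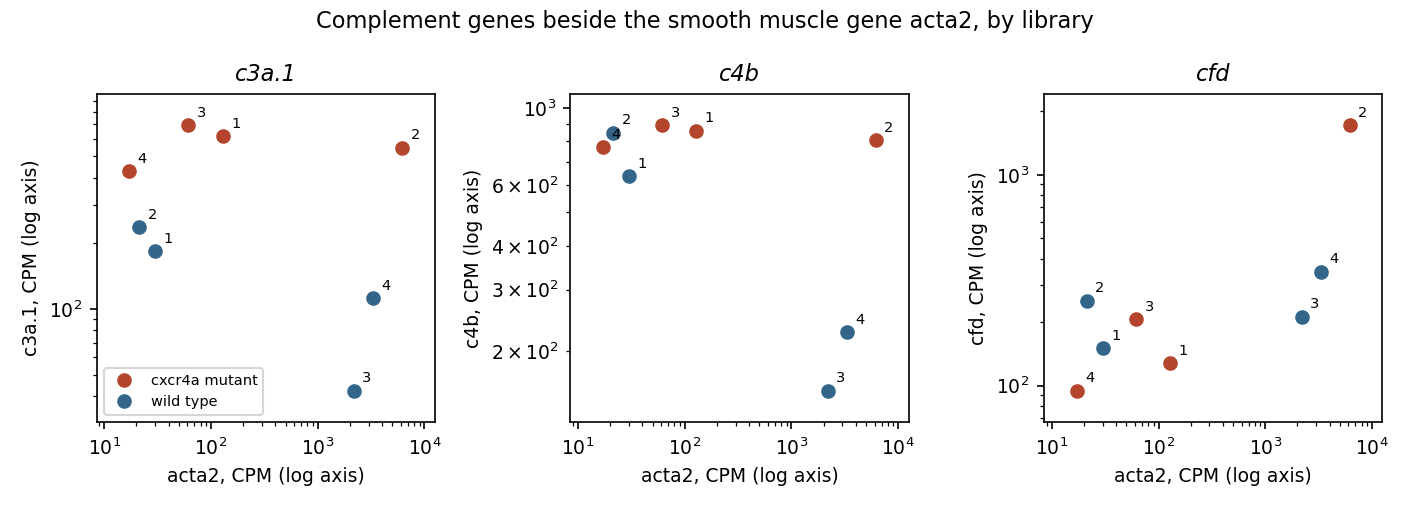
Level of c3a.1, c4b and cfd (vertical axes, CPM, log scale) against the level of the smooth muscle gene acta2 (horizontal axis, CPM, log scale) in each library, with cxcr4a mutants in red, wild type in blue and replicate numbers beside the points. Mutants 1 to 4 lie above wild type for c3a.1, and mutant 2 is the only mutant with high acta2. cfd is highest where acta2 is 6182 CPM, but is at 212 CPM in wild-type 3, where acta2 is 2188 CPM.

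Liver markers ranged from absent to abundant. Of 14 hepatocyte markers, 4 were fitted, 3 with a positive change, and edgeR called 0; apoa2, serpina1l, serpina1 and fgb were at 0 in all libraries, and apoa1a, apobb.1, fga, fgg and ttr had few counts. Their summed level was 877 to 2569.6 CPM over mutants and 587 to 1565 CPM over wild-type libraries, nearly all from the transferrin gene tfa, and 9.56 to 25.4 CPM over mutants and 1.74 to 18.7 CPM over wild-type libraries without it. fabp10a, a liver fatty-acid-binding gene, had 220, 284, 401 and 170 counts in mutants 1 to 4 and 64, 20, 113 and 79 in wild-type 1 to 4. As levels these were 5.93 to 17.4 CPM over mutants and 0.871 to 3.76 CPM over wild-type libraries, without overlap and in the direction of c3a.1. fabp10a was singled out after its values were seen, and mutants lay above for 3.48% of all symbols. Its log2 fold change was 2.14 ± 0.54 (SE). edgeR did not call it (adjusted p = 0.268) and DESeq2 did (adjusted p = 0.00739), beside 2.13% of all symbols. The abundant tfa was at 0.23 ± 0.46 on the log2 scale (SE; edgeR adjusted p = 0.939), with overlapping groups. The part of fabp10a and tfa in the c3a.1 values was not tested.

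il1b and il6, genes of cytokines that induce C3 in mammals, gave few reads, while several transcription factors of the acute phase response were abundant. il1b averaged 6.06 ± 6.21 CPM over mutants and 3.18 ± 3.38 CPM over wild-type libraries (SD, n = 4 each; edgeR adjusted p = 0.874), and il6 had at most 84 counts in a library and was not fitted. Other listed cytokine genes were tnfb, at 27.2 ± 15.8 CPM over mutants and 12.3 ± 4.78 CPM over wild type, and tnfa, at 1.98 ± 2.40 and 1.67 ± 1.14 CPM. il11a was at 12.6 ± 17.4 and 2.14 ± 0.864 CPM (SD, n = 4 each). None of these passed (edgeR adjusted p = 0.550 for tnfb, 0.980 for tnfa and 0.472 for il11a). Of 31 acute phase genes, cytokines and transcription factors in the files, 27 were fitted, 22 with a positive change beside 50.7% of all symbols, and edgeR called 0. Its unadjusted p was under 0.05 for 7, all 7 of them higher in mutants, beside 5.09% of all symbols higher. DESeq2 called 1 of the 26 to which it gave an adjusted p, the chemokine gene cxcl8a, beside 2.13% of all symbols. This list was also chosen with earlier results of these data known, so nothing is read from these counts.

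In that list, every mutant lay above every wild-type library for 2 genes, saa and cxcl8a, named after their values were seen, beside 3.48% of all symbols. saa, which encodes the acute phase protein serum amyloid A, had 17895, 660, 124 and 66 counts in mutants 1 to 4 and 43, 5, 0 and 11 in wild-type 1 to 4. As levels the groups barely separated for saa, with mutant 4 at 2.304 CPM and wild-type 1 at 2.265 CPM. Mutant 1 held most of the saa reads and was next below mutant 3 for c3a.1, at 618 against 694 CPM. Mutant 3 had few saa reads. The log2 fold change was 8.29 ± 2.197 (SE; edgeR adjusted p = 0.287), and 4.34 without mutant 1. cxcl8a had 1424, 740, 213 and 341 counts in mutants 1 to 4 and 8, 4, 128 and 39 in wild-type 1 to 4, a log2 fold change of 4.36 ± 1.01 (SE; edgeR adjusted p = 0.219), and 3.73 to 5.33 leaving out each library.

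The abundant genes of the list differed less between the groups. cebpb, which encodes a transcription factor of the acute phase response, was at 2320.5, 2422, 739 and 1136 CPM in mutants 1 to 4 and 950.3, 554, 1140.2 and 936 CPM in wild-type 1 to 4. Mutants 1 and 2 were high, as they were for the cytokine-signal inhibitor gene socs3a at 1432 and 1401 CPM, while mutant 3, highest for c3a.1, was at 739 and 295 CPM. The part of saa, cebpb, socs3a and the other listed genes in the c3a.1 values was not tested.

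None of the 6 most abundant of these genes passed. On the log2 scale cebpb was at 0.89 ± 0.40, socs3a at 1.21 ± 0.50, stat1a at 0.44 ± 0.36 and the NF-kappa-B inhibitor gene nfkbiab at 0.36 ± 0.27 (SE; edgeR adjusted p = 0.580, 0.533, 0.793 and 0.771). cebpd was at 0.17 ± 0.29 and cebpa at -0.24 ± 0.33 (SE; edgeR adjusted p = 0.920 and 0.893).

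Across the 8 libraries, the genes whose log2 CPM most resembled that of c3a.1, out of 9001 symbols without clone-based names, included crabp2a, slc44a5b, tmem107 and maf1b. Pearson's r was 0.99 for crabp2a, which encodes a retinoic acid binding protein, and 0.96 for slc44a5b, tmem107 and maf1b. These describe libraries of both genotypes together, so genotype, library and depth enter the likeness. crabp2a was at 26.5, 15.9, 23.4 and 20.6 CPM in mutants 1 to 4 and 5.90, 8.93, 1.32 and 4.28 CPM in wild-type 1 to 4. The wild-type order of libraries, with 2 highest and 3 lowest, was that of c3a.1, but crabp2a was picked for its likeness over these same libraries. The mutant order differed. Mutant 1 was highest and mutant 2 lowest for crabp2a, while mutant 3 was highest and mutant 4 lowest for c3a.1. No likeness could be computed for c7b, which was at 0.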

How the data were processed

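Each library has 1 deposited file of raw read counts, 1 whole number for each row. Per the submitters' processing notes, the authors used cutadapt 5.2, STAR 2.7.11a, HTSeq and the GRCz11 build. SMART-Seq v4 amplification and Nextera XT, named in the labels' protocols, leave strand unmarked. The 53709 rows of a file hold 6260 symbols on more than 1 row, told apart by an added number; rows were summed to 37685 symbols. Of these, 16631 passed filterByExpr and were fitted with edgeR 4.0.16 in R 4.3.3 (TMM, quasi-likelihood F-test, 2-sided, genotype as the only term, 8 libraries), with Benjamini-Hochberg adjustment over all 16631. Standard errors come from the F statistic. The fit was tested on simulated counts.

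Alternatives were DESeq2 1.42.0, other scalings and filters, unsummed rows, a block for replicate number, and omission of each library. No libraries of a group agreed within sampling noise, with a chi-square of at least 80.2 per degree of freedom. The 10 genes and the lists were chosen with earlier results of these data known. Genes named beside the 10 are, per role, the 3 other complement genes and the 6 acute phase or inducing genes with the highest mean CPM, any that were called, and the 5 most like c3a.1 and c7b at a mean log2 CPM (prior count 2) of 3 or more. 1 gene that these rules name is not reported here. Other genes were named after their values were seen. Neighbouring genes come from a RefSeq table of GRCz12tu, and the counts use another build, so coordinates are left out. No sequences of these genes were used here. Counts were deposited after amplification without molecular identifiers, so the floors, and the limits drawn from them, cover counting error only.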

Additional observations from a re-analysis of the deposited data

Results flagged for a closer look

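In 7 of 70 checks of gene levels, 1 library lay far from the other 3 in its genotype. The cutoff is set to mark about 1 in 20 groups of independent, normally distributed values, and levels on a linear scale are not such values.

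cfd reached 1717 CPM in cxcr4a mutant 2, and its next highest mutant was at 207 CPM. colec11 was at 27.1 CPM in cxcr4a mutant 3, against 8.64 CPM or less in the other mutants. c3a.4 was at 92.5 CPM in cxcr4a mutant 4, from 2651 counts, with 0 to 120 counts in the other mutants. tmem107, among the genes most like c3a.1, was at 24.3 CPM in cxcr4a mutant 1 and 15.7 CPM or less in the other mutants.

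Among wild-type libraries, number 2 stood apart for colec10, at 6.88 CPM with the others at 1.95 CPM or less, and for c8g, at 2.13 CPM with the others at 0.748 CPM or less. c1qc was at 0.0898 CPM in wild-type 3, which is 3 counts, and at 0 in the other wild-type libraries.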

How the results depend on the processing

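The number of symbols called was 8 and became 63 with rows as deposited, 458 with DESeq2, 0 with the replicate number as a block, 0 without the 3 libraries over 1000 CPM of acta2 (an alternative added after seeing the data), and 0 to 9 leaving out each library. It was 0 without cxcr4a mutant 1, 1 without cxcr4a mutant 3, and 2, 1, 3 and 1 without wild-type 1 to 4. Over all fitted symbols, the same-numbered libraries did not deviate together (r of -0.08 to 0.08 over 4 pairs). Such an r cannot show whether the numbers pair libraries for some of the genes. The causes of the shifts in the number called were not tested. Other complement genes called were 0 under every alternative run. Members whose groups did not overlap numbered 3, all with mutants above, beside 3.48% of all symbols with mutants above. They numbered 4 without wild-type 2 (3 to 4 leaving out each library), and 5 without the 3 libraries over 1000 CPM of acta2, where 27.4% of all symbols did not overlap. The share of all symbols was not computed with 1 library left out. Fewer libraries overlap less readily, so nothing is read from these counts. Of the 7 fitted members, cfd reversed, to -0.75 without cxcr4a mutant 2 (-0.75 to 1.51 leaving out each library) and to -0.49 without the acta2-rich libraries; the other 6 kept their direction under every alternative that fitted them. c3a.1 ranged from 1.46 to 2.33 over all alternatives.

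Under the alternatives, 4 fits of other named genes gave a call that the main fit did not. cxcl8a and fabp10a with DESeq2 were among them. For other genes, none of which was called in the main fit, direction reversed when single libraries were left out. The log2 ranges were -0.00055 to 0.58 for c1s.1, -0.77 to 0.12 for cfp, -2.64 to 2.06 for c3a.4, -1.10 to 0.062 for cfbl, -0.049 to 0.30 for c7a, -0.10 to 0.17 for cpn1, -0.24 to 0.0080 for rca2.1, -0.083 to 0.47 for itgb2, -0.83 to 0.40 for c5ar1, -0.39 to 0.0071 for cebpa and -0.012 to 0.32 for cebpd. Without the acta2-rich libraries the reversed values were -0.045 for c1s.1, -0.066 for colec10, 0.20 for cfp, 0.24 for cfbl, -0.22 for c7a, 0.053 for rca2.1, 0.81 for c5ar1, -0.17 for cebpd and -0.18 for stat1a. With the replicate block c3a.4 was at -0.45 on the log2 scale. Depth limits c3a.2, c3a.3, c3b.1, c3b.2 and c5, which ranged among them over 0 to 188 counts per library.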
